A study of Mus musculus with 2 samples.

Results

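Glycolysis and glycogen turnover are described here through 34 genes that encode glucose transporters, the glycolytic enzymes and the enzymes that build and break down glycogen, with the isozymes of muscle set beside their paralogs from other tissues. The members were taken by name, through the single gene symbol given to a probe set in the platform annotation, with symbols updated by Entrez ID. Of the 34 genes, 32 had at least 1 probe set, 64 probe sets in all, among 18194 named genes and 45101 probe sets on the array. The expression of Gpi1 and Eno1 was not analysed here. Phkg1 and Gbe1 lay below a low-signal limit of 489 on both arrays, which left 30 measured members and 52 measured probe sets.

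The tissue was the esophagus of E18.5 mouse embryos, and the series title concerns the exchange of smooth for striated muscle in that organ. The labels give 2 RNA samples on 1 array each. The first came from wild-type BALB/c embryos and the second from embryos on the same strain background labelled null for both Myf5 and Myod (Myod1 in the tables), transcription factors that set the skeletal muscle fate. The sources used here do not state how many embryos went into each sample. With 1 array per genotype no test between genotypes was possible, there is no replicate error, and each difference compares these 2 RNA samples only. The values are MAS5 signals, Affymetrix's summary of the probes of a probe set on a linear scale. A signal below the limit was raised to it before a log2 ratio of the second array over the first was taken, and a ratio with 1 such signal is a bound, written "at least". The only spread at hand is how far a gene's probe sets differ, with an SD of 0.56 on the log2 scale over 14316 probe sets of 5457 genes, and 0.48 over 34 probe sets of 12 members. It holds no variation between animals.

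Glycolysis converts glucose to pyruvate and lactate with a net gain of ATP, and skeletal muscle, which must meet sudden demand, stores glucose as glycogen and carries large amounts of these enzymes. Several steps are catalysed by isozymes from separate genes: a form made mainly in striated muscle replaces, or joins, a form found in most cells as myoblasts mature. Mutations of PYGM, PFKM, PGAM2, ENO3 and LDHA in humans cause muscle glycogen and glycolysis diseases. Smooth muscle and epithelium run the same pathway mostly with the widely expressed forms.

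The targeted genes were examined first. The signal of Myf5 was 4072 in wild type against 496 in the null-labelled sample, 8.22-fold lower. Myod1 did not separate the arrays, at 2001 and 1698 in its brighter probe set and 321 and 292, both under the limit, in the other. Neither labels nor tables state whether these probe sets fall inside the deleted parts, so Myod1 checks nothing, and the second array is called the null-labelled array throughout. Striated muscle markers read far lower: of 13 listed genes 12 were measured, and each of these was past 2-fold (median log2 ratio -5.90), with Myh3, the embryonic myosin heavy chain, at 81678 and 507 and Acta1, skeletal actin, at 60683 and 816. The summed signal of all 13 listed genes was 409837 and 11189. The remaining marker, Mb (myoglobin), was below the limit on both arrays. In whole tissue, fewer muscle fibers and less RNA per fiber cannot be told apart, here or in any result that follows.

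Of the 30 measured members, 7 read at least 2-fold lower on the null-labelled array (Pgam2, Eno3, Tpi1, Pkm, Slc2a3, Pfkm and Aldoa), 1 read at least 2-fold higher (Pygl) and 22 were neither. Over all 13316 measured genes 5.36% were 2-fold lower and 6.01% 2-fold higher, so the lower share of the members (23.3%) was above the share of all genes and the higher share (3.33%) was not. With loess on signal the shares of all genes were 7.16% and 3.43%, the median of all genes was -0.021, and 8 of 29 members were lower and 1 higher. At 4-fold, 2 members were lower (Pgam2 and Eno3) and 0 higher, against 1.07% and 0.158% of all genes. Most members are bright. Among the 6376 genes above 1399, the 75th percentile of all signals, on both arrays, 4.08% were 2-fold lower and 1.9% higher, and of the 23 members among them 5 were lower and 1 higher. The median log2 ratio was -0.35 over the measured members and 0.086 over all measured genes. Taken without a limit, with a pseudocount of 16 and all 32 members that have a probe set, it was -0.35 against 0.17 for all genes. Dividing both arrays by the signal of the 3' Gapdh control, itself a member, would leave 2 members lower and make 6 higher, while 1.54% of all genes would be lower and 37.0% higher.

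**Figure D1:**
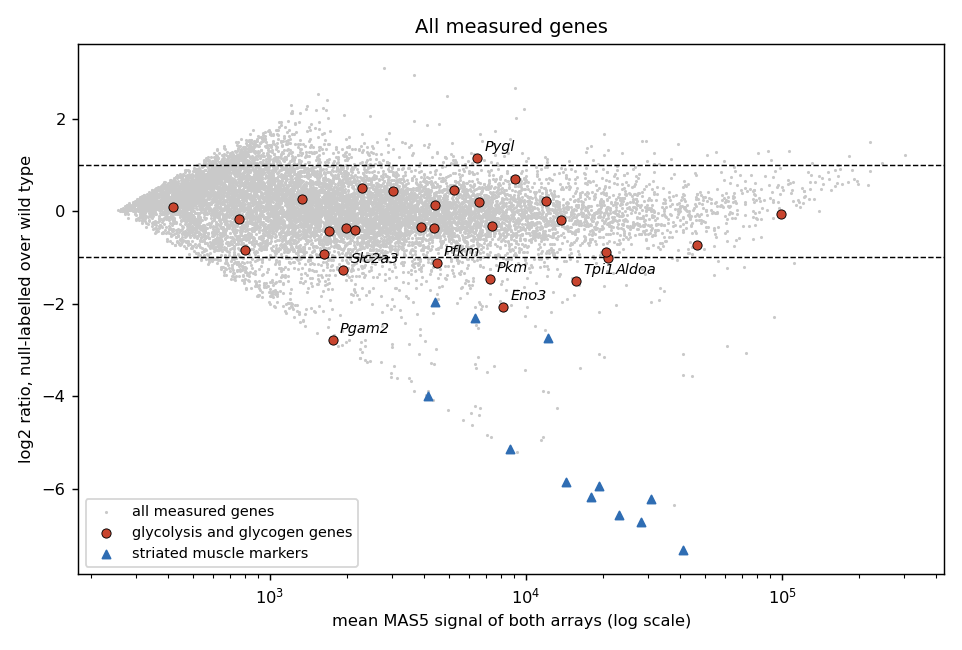
Log2 ratio (null-labelled over wild type) against the mean signal of both arrays (log scale) for all 13316 measured genes (grey), the 30 measured members (red circles) and 12 striated muscle markers (blue triangles), with dashed lines at 2-fold. The 7 lower members lie below the lower dashed line, with Pgam2 and Eno3 among the least changed muscle markers, and Pygl lies above the upper line.

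The largest differences were in the part of glycolysis from the triose phosphates to lactate, though not in every gene there. Of 10 measured members between the triose phosphates and lactate, 4 read 2-fold lower or more and 0 higher, with a median of -0.81, against 2 of 8 lower between hexokinase and aldolase (median -0.40), 1 of 3 glucose transporters and 0 of 9 glycogen genes (median -0.16). These groups were not tested against each other.

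Pgam2, the muscle phosphoglycerate mutase, read 3389 in wild type against 119, below the limit, in the null-labelled sample, at least 6.93-fold lower. This was the largest ratio among the members. Its paralog Pgam1, the form of brain and most other tissues, read 14525 and 12782, 1.14-fold lower. The difference in log2 ratio, Pgam2 minus Pgam1, was a bound of -2.61, which is 3.30 times the SD of a difference between 2 probe sets (0.79). It was -1.09 when the limit was set to the 75th percentile and -4.47 with no limit, because the null-labelled signal of Pgam2 lies under every limit tried.

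For enolase, the next enzyme, the expression of Eno1 was not analysed, so the muscle form could be set only beside Eno2. Eno3, the beta enolase of striated muscle, read 13137 and 3104, 4.23-fold lower, from its 1 probe set. Eno2, the gamma enolase of neurons and neuroendocrine cells, was close to the limit, at 315 and 518, so only a small positive bound of 0.083 could be had, and centring the arrays turned it to -0.0027. Neuron markers are given beside it: of 7 listed 5 were measured, 1 was 2-fold lower (Snap25) and 0 higher (median -0.84). The summed signal of the 6 with a probe set, measured or not, was 9811 and 7604. The brightest were Stmn2 (3272 and 2970) and Elavl4 (2056 and 2068). The part of neurons in the ratios of Eno2 and of the neuronal transporter Slc2a3 was not tested.

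The promoters of Pgam2 and Eno3, the pair with the largest ratios, and of Pgam1, whose ratio was small, are shown because MyoD-family proteins bind E-boxes and act with MEF2 factors on muscle promoters. Each is a RefSeq window (GRCm38.p6) from 250 bases before to 50 after an annotated transcript start, 5′ to 3′ on the gene's strand. Capitals mark E-boxes (CANNTG, which includes CAGCTG) and a MEF2 consensus match. The windows are chr11:5803747-5804046 on the minus strand for Pgam2, chr11:70656926-70657225 on the plus strand for Eno3 and chr19:41911621-41911920 on the plus strand for Pgam1.
Pgam2: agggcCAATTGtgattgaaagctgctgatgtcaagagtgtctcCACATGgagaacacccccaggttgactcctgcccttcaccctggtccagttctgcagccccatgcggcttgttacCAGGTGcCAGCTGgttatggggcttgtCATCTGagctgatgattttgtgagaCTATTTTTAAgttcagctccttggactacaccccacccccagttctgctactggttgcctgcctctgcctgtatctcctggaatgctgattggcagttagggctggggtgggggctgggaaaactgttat
Eno3: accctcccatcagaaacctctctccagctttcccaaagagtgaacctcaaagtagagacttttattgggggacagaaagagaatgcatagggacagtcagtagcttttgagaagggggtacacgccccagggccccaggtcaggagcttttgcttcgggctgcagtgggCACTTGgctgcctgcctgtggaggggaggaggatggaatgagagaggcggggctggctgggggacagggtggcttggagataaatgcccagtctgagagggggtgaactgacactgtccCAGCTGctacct
Pgam1: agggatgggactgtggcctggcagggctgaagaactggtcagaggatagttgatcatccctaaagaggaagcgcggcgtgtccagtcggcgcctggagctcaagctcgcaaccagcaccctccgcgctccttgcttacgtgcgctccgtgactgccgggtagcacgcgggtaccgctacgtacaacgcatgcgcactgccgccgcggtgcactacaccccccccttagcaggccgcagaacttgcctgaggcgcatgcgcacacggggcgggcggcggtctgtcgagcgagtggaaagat

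Pgam2 held 5 E-boxes, 1 of them the CAGCTG form that begins 125 bases before the start, and the MEF2 match 80 bases before it. Eno3 held 2, with CAGCTG beginning at base 39 of the transcript, and Pgam1 held 0. Promoter windows were found for 32 of the 34 members, 43 windows in all, with none for Slc2a3 and Slc2a4. Searched on both strands, CAGCTG occurred in a window of 18.3% of all 27025 genes in the table (16.3% of 32851 windows). Among the muscle isozymes it occurred in 5 of 8 genes (Eno3, Fbp2, Pgam2, Phka1 and Pygm), and among the non-muscle paralogs in 0 of 13. Of the 6 lower members with a window, 4 held it (Aldoa, Eno3, Pgam2 and Pkm), and of the 22 that were measured and not lower 5 did. Some genes have several windows, and counted by window it was in 4 of 12 and 5 of 25. The other 4 members with a window (Eno1, Gbe1, Gpi1 and Phkg1) have no measured ratio. The 8 muscle isozymes and 13 paralogs with a window are thus not all the same genes as those with a ratio. The looser CANNTG was in 23 of 32 members and 20265 of all 27025 genes. The MEF2 consensus was found in 1 member, Pgam2, and in 3.70% of all genes. ACGTG, the core of sites bound by hypoxia-inducible factors, was in 16 of 32 members and 21.8% of all genes, with 3 of the 6 lower members and 13 of the 22 measured and not lower holding it. A match describes the letters in the window and shows no binding.

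Tpi1, the triose phosphate isomerase, has no muscle isozyme, and its 3 probe sets gave nearly 1 value. They read 23200 and 8157, 19053 and 6757, and 18562 and 6277, which is 2.84-fold, 2.82-fold and 2.96-fold lower. Every one lay past 2-fold, which held for no other member with several measured probe sets. Pkm, whose splice forms include the M1 pyruvate kinase of adult muscle and the M2 form of embryonic and dividing cells, read 10602 and 3824, 2.77-fold lower. It has 1 probe set here, and which splice form that set reads was not stated in the tables.

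The enzymes between triose phosphates and Pgam differed less. Gapdh is measured only by the 3 control probe sets along its transcript. They read 58246 and 35004 at the 3' end, 23943 and 11232 in the middle, and 5555 and 5026 at the 5' end, which is 1.66-fold, 2.13-fold and 1.11-fold lower. All 3 were lower on the null-labelled array but by unequal amounts, and the ratio of 3' to 5' signal was 10.5 and 6.96. Bacterial poly-A control transcripts went the other way: in 9 of 9 pairs the 3' log2 ratio was above the 5' ratio, by a median of 0.83. Several of these pairs read the same transcript with different probe sets, so they are not independent. The part of RNA or labelling quality in the members' ratios was not tested. Pgk1, the phosphoglycerate kinase, gave 3 unlike answers, at 101398 and 97432, 41588 and 32126, and 26708 and 10404, that is 1.04-fold, 1.29-fold and 2.57-fold lower. The first and last of these have IDs ending in _x_at, Affymetrix's mark for probes that may also match other sequences, so how far Pgk1 differed is uncertain.

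Lactate dehydrogenase is a tetramer of A and B subunits, the A form prevailing in skeletal muscle and the B form in heart. Ldha read 26776 and 14442, 1.85-fold lower, which did not reach 2-fold in any planned setting. Ldhb read higher in all 4 probe sets, at 6891 and 11240 in the one that stands for the gene, with ratios from 1.11-fold to 1.63-fold. The log2 ratio of Ldha was 1.60 below that of Ldhb, and below it with each of the 4 Ldhb probe sets.

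**Figure D2:**
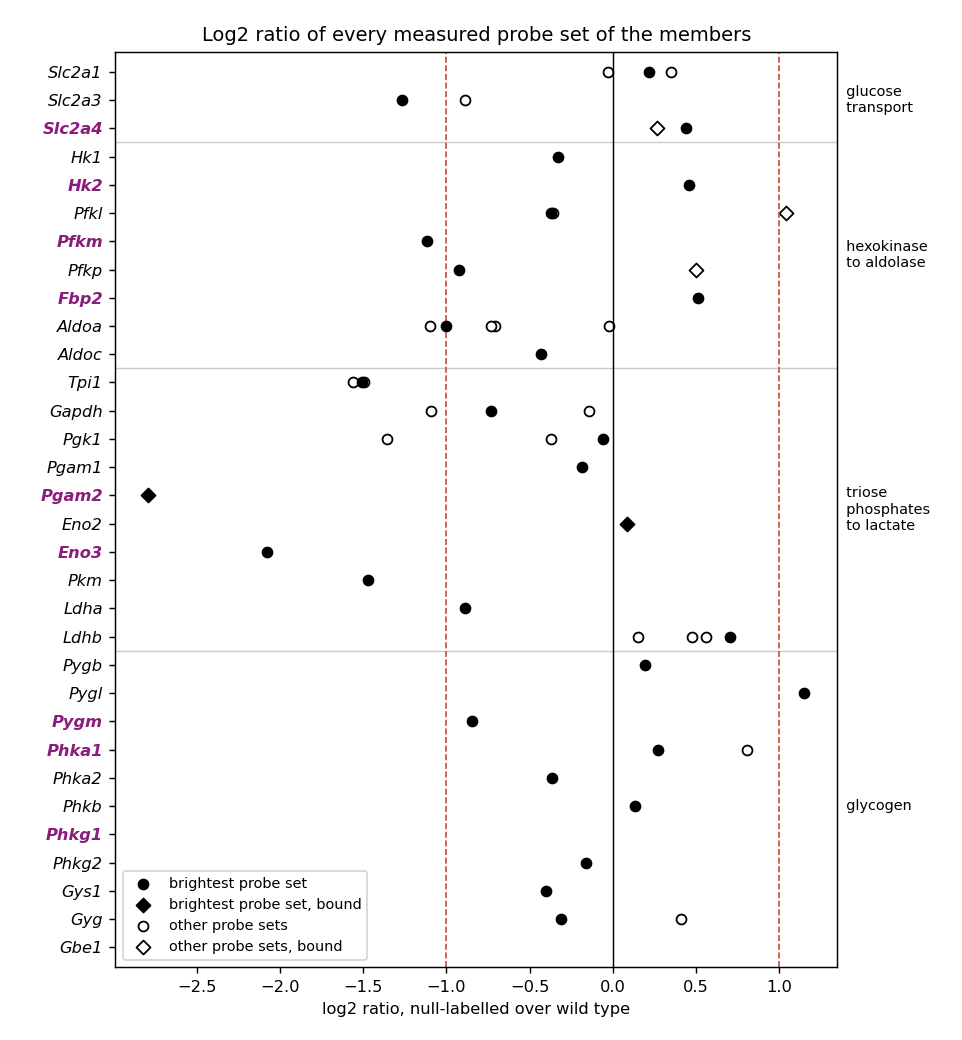
Log2 ratio (null-labelled over wild type) of the 52 measured probe sets by gene in pathway order, filled for the brightest probe set of a gene and open for others, diamonds for bounds, with dashed lines at 2-fold and muscle isozymes in bold purple. The 3 Tpi1 probe sets coincide, those of Aldoa and Pgk1 spread, and Pfkl, Pfkp, Slc2a1 and Gyg have probe sets on both sides of 0.

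In the upper part of the pathway Pfkm, the muscle phosphofructokinase, which catalyses the committed step, read 6138 and 2826, 2.17-fold lower. The liver-type gene Pfkl read 4939 and 3816, 1.29-fold lower, a second probe set read 4113 and 3199, and another read 325 and 1005, a bound of 2.05-fold higher. The platelet-type gene Pfkp read 2132 and 1122, 1.90-fold lower, and its other measured probe set 169 and 692, a bound of 1.41-fold higher, with the last under the limit at 165 and 68.1. Its main ratio passed 2-fold with centring, quantile normalization and loess. All 3 phosphofructokinase genes thus read lower in their brightest probe set. The difference between Pfkm and Pfkl was -0.75, just under the SD of a difference, and that between Pfkm and Pfkp was -0.19, with a range over the planned settings from -0.91 (median of the probe sets) to 0.013 (quantile normalization).

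Aldoa, the aldolase of muscle and most other tissues, read 27969 and 13942 in its brightest probe set, 2.01-fold lower. Its other 4 probe sets read 21819 and 10183, 4364 and 2621, 19762 and 12092, and 12601 and 12426, which is 2.14-fold, 1.66-fold, 1.63-fold and 1.01-fold lower. All 5 carry the _x_at mark and only 2 reached 2-fold, so Aldoa stands at the threshold, and it dropped below it with quantile normalization (-0.89), loess (-0.95) and the median of its probe sets (-0.74). Aldoc, the form of brain, read 1961 and 1451, 1.35-fold lower.

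The hexokinases and Fbp2 did not share this direction. Hk2, the insulin-regulated hexokinase of muscle and fat, read 4411 and 6053, 1.37-fold higher, while Hk1, the form of most tissues, read 4326 and 3438, 1.26-fold lower. The log2 ratio of Hk2 was 0.79 above that of Hk1, as large as the SD of a difference. Fbp2, the muscle fructose bisphosphatase, which runs the phosphofructokinase step in reverse, read 1886 and 2684, 1.42-fold higher, from 1 probe set.

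Glucose enters cells through the transporters of the Slc2a family. Slc2a4 (GLUT4), the insulin-responsive transporter of muscle and fat, read 2569 and 3486, 1.36-fold higher, and 136 and 588 in its second probe set, also higher. Slc2a1 (GLUT1), the general transporter, read 11042 and 12818, 1.16-fold higher, and its other probe sets were 1.27-fold higher (1451 and 1847) and 1.02-fold lower (3365 and 3295). Slc2a3 (GLUT3), the high-affinity transporter of neurons and some blood cells, was the lower one. It read 2736 and 1135, 2.41-fold lower, and 1994 and 1077, 1.85-fold lower, in a pair of probe sets with _s_at and _x_at IDs, while its other 2 probe sets were below the limit on both arrays (192 and 406, and 42.3 and 32.5). Its log2 ratio was -0.97 under the higher limit of 1399, and without the _s_at and _x_at probe sets it was not measured. Of 7 listed red cell markers 3 were measured, 1 was 2-fold lower (Slc4a1, 1521 and 654, beside Alas2 at 4576 and 2466) and 0 higher. The summed signal of the 4 with a probe set, measured or not, was 6378 and 3851. The part of blood cells in the ratio of Slc2a3 was not tested.

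**Figure D3:**
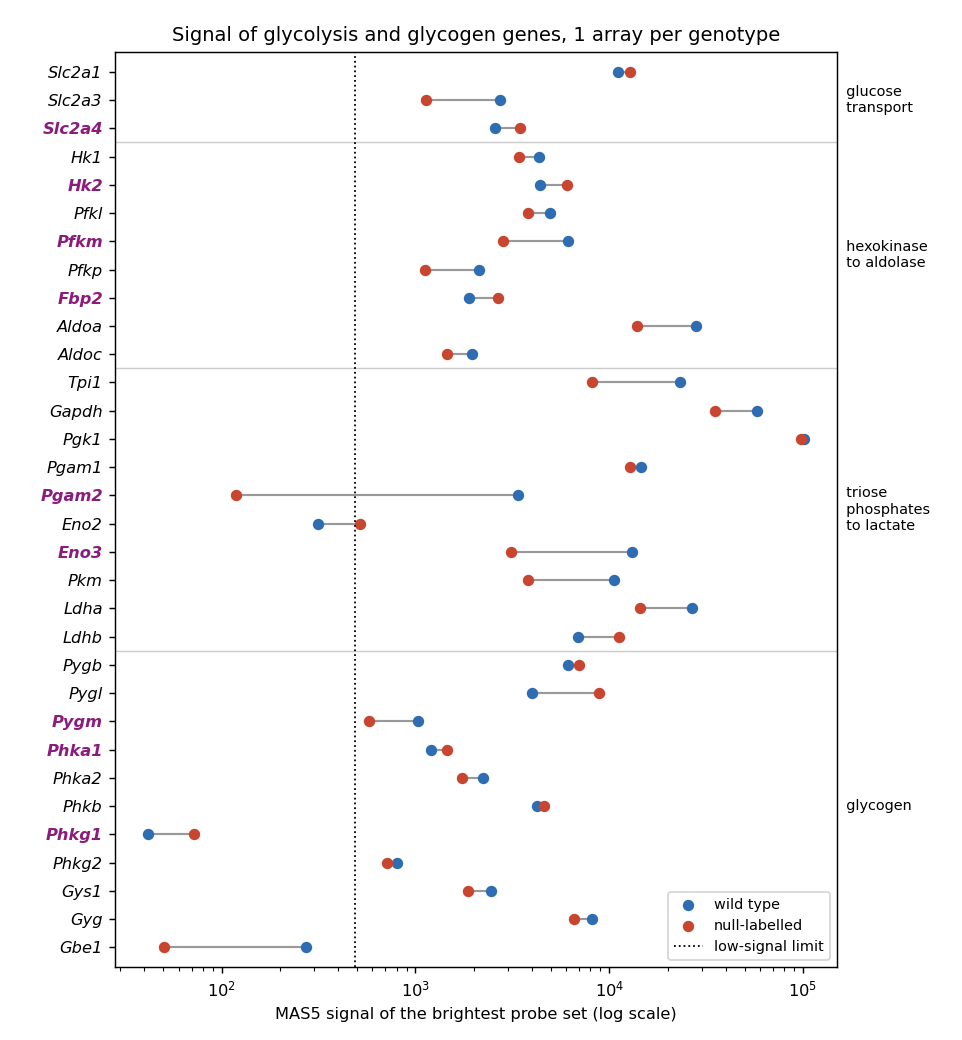
MAS5 signal (log scale) of the brightest probe set of each of the 32 members with a probe set, in pathway order, on the wild-type (blue) and null-labelled (red) arrays, with the low-signal limit of 489 dotted and muscle isozymes in bold purple. Pgam2 crosses the limit, Eno3, Tpi1 and Pkm keep clear of it, and Phkg1 and Gbe1 lie under it on both arrays.

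Glycogen is released by phosphorylase, and the 3 isozymes differed. Pygm, the muscle form lost in McArdle disease, read 1030 and 573, 1.80-fold lower, and among the planned settings passed 2-fold with quantile normalization (log2 ratio -1.20) and loess (-1.23). Pygl, the liver form, read 4006 and 8890, 2.22-fold higher, the only member past 2-fold in that direction. Pygb, the brain form, read 6120 and 6989, 1.14-fold higher. The log2 ratio of Pygm was 1.99 below that of Pygl and 1.04 below that of Pygb, 2.53 and 1.31 times the SD of a difference. Each of these genes has 1 probe set. Of 5 listed liver markers 4 were measured and 0 were 2-fold apart, and their summed signal was 14235 and 13762, with Afp at 6905 and 6665 and Alb at 5074 and 3711.

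Phosphorylase kinase, which activates phosphorylase in response to calcium, has alpha, beta and gamma subunits. Phka1, the muscle alpha subunit, read 1204 and 1452 and, in a second probe set, 712 and 1247, 1.21-fold and 1.75-fold higher. Phka2, the liver alpha subunit, read 2233 and 1733, 1.29-fold lower. The catalytic gamma subunit of muscle, Phkg1, stayed under the limit, at 41.8 and 72.2. Its liver and testis paralog Phkg2 read 800 and 716, and the shared beta subunit Phkb read 4219 and 4629, both within 1.12-fold.

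The measured glycogen synthesis genes, Gys1 and Gyg, did not reach 2-fold. Gys1, the glycogen synthase of muscle and most tissues other than liver, read 2455 and 1858, 1.32-fold lower. Gyg (glycogenin), the primer on which a glycogen particle starts, read 8150 and 6571, 1.24-fold lower, in a probe set with an _s_at ID, and 592 and 786, 1.33-fold higher, in the other. The branching enzyme gene Gbe1 was under the limit, at 274 and 50.2, so it has no measured ratio (-2.13 with no limit).

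The muscle isozymes did not behave as 1 group. Of 8 measured, 3 were at least 2-fold lower (Pfkm, Pgam2 and Eno3), 0 were higher and 5 were neither, with 4 ratios below 0 and 4 above (Hk2, Phka1, Fbp2 and Slc2a4). Their median was -0.29 with the limit, and 0.27 over all 9 with no limit, and 0.054 with the limit at 1399, so its sign depends on the limit. Of 13 non-muscle paralogs, 1 was lower (Slc2a3), 1 higher (Pygl) and 8 below 0 (median -0.18). The 4 widely expressed forms that muscle also relies on, Aldoa, Ldha, Gys1 and Pkm, were all below 0 (median -0.95), and 2 of them were 2-fold lower. Of the 5 measured single forms, 1 was lower, Tpi1 (median -0.31). Under centring, quantile normalization and loess, Eno2 was the only measured member whose sign turned (by centring), and it was not measured under the other 2.

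Of 14 listed pairs of a muscle form and a paralog, 12 could be compared. The muscle form had the lower log2 ratio in 8 and the higher in 4, and the median difference was -0.66. Aldoa and Ldha, counted here as muscle forms, are widely expressed forms outside the muscle isozymes above, with differences of -0.57 and -1.60. The gap was at least 2-fold in 5 with the muscle form lower (Pgam2 and Pgam1, Eno3 and Eno2, Pygm and Pygl, Ldha and Ldhb, Pygm and Pygb) and in 1 with it higher (Slc2a4 and Slc2a3, 1.71). Pairs that share a gene, such as both with Pygm, are not independent.

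**Figure D4:**
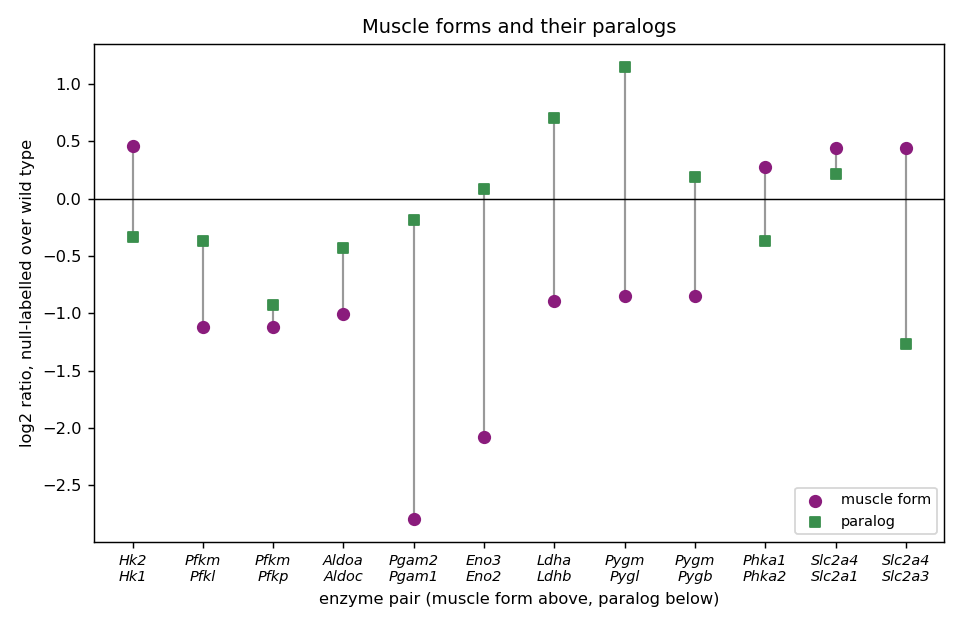
Log2 ratio (null-labelled over wild type) of the muscle form (purple circles) and its paralog (green squares) in the 12 pairs that could be compared, joined by a line. The muscle form is the lower point in 8 pairs, by most in Pgam2 and Pgam1 (-2.61, a bound) and Eno3 and Eno2 (-2.16, a bound), and the higher point for Hk2, Phka1 and Slc2a4.

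Other genes of the pathway came from 3 lists of 51 genes in all, of which 38 were measured. Of these 2 reached 2-fold lower (5.26%, against 5.36% of all measured genes) and 0 higher, with a median of -0.057. Pdhb, a subunit of pyruvate dehydrogenase, read 21485 and 10242, 2.10-fold lower, and Pcx, pyruvate carboxylase, read 1143 and 427, at least 2.34-fold lower. Pdhb's second probe set gave a bound of -0.18, and for Pcx the 5' control probe set read 307 and 1059, the opposite direction. By list, 2 of 17 measured regulators of glycolysis and pyruvate use, 0 of 15 glycogen turnover genes and 0 of 6 isozymes of liver, testis and other tissues were lower (medians -0.071, -0.25 and 0.069). Of 11 measured hypoxia targets outside glycolysis, 0 were 2-fold lower and 1 was higher, Adm (adrenomedullin), at 3427 and 6919 (median 0.0080).

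Markers of the organ's other cell types are given as measured. Of 8 smooth muscle markers 1 was higher (Lmod1, a bound) and 1 lower (Des, 3066 and 1094), 5 ratios were above 0 and 3 below, and the median was 0.30. The second Des probe set read 447 and 870, a bound in the opposite direction. Their summed signal was 208870 and 324798, most of it from Acta2 (131127 and 242976), while Tagln, the next brightest, read 26359 and 19059. Of 7 squamous epithelium markers 1 was lower (Krt14) and 0 higher, 5 ratios were below 0 and 2 above, and the median was -0.27. Their summed signal was 438532 and 481035. The brightest were the keratins Krt4 (173385 and 259124) and Krt15 (87361 and 78385). The other Krt4 probe set went the opposite way, with a log2 ratio of -0.25, so the direction of the sum depends on the probe set used. Of 6 fibroblast markers 0 were 2-fold apart (sum 313500 and 449358), with the collagens Col3a1 at 103465 and 175150 and Col1a2 at 84443 and 129978. Of 4 measured endothelial markers 1 was higher (Emcn, a bound), with the receptors Kdr at 2159 and 1415 and Tek at 1490 and 1563. The endothelial sum of 5223 and 4989 also holds Pecam1, which was below the limit on both arrays (417 and 76.1). Their part in the members' ratios was not tested.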

How the data were processed

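RNA from 2 samples of E18.5 mouse esophagus was labelled from 6 µg and hybridized to Affymetrix arrays, per the labels' protocols. The authors deposited linear signal intensities made with MAS5, per the submitters' processing notes, its version not given in the sources used here. Both arrays have the same mean after trimming 2% at each end (1500). No detection calls were used. No depth applies to arrays, and their number limits the precision.

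Names came from the platform annotation at GEO, possibly outdated, with Entrez IDs looked up in RefSeq (GRCm38.p6). Leaving out 64 controls, of 45101 probe sets 34945 have 1 symbol, 932 several and 9160 none. Control probe sets with a mouse gene ID, such as those of Gapdh, counted as that gene. The limit was the median of all non-control signals. The probe set with the highest mean signal stood for a gene. Genes were called by size, at least 2-fold. The ratio code was tested on simulated data. Alternatives were other scalings, limits, probe set choices and a 4-fold threshold. The members and lists were chosen with earlier results of these data known.

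Every member is given; of the pathway and hypoxia lists the genes at least 2-fold apart are named, and of the marker lists the 2 brightest by mean signal, plus genes 2-fold apart in other lists than striated muscle, added after their values were seen. Python 3.11.15, numpy 2.4.6, pandas 2.3.3 and statsmodels 0.14.6 were used.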

Additional observations from a re-analysis of the deposited data

How the results depend on the processing

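In the planned 2-fold alternatives (centring, quantile normalization, loess with a span of 0.3, a lower limit of 168 or a higher one of 1399, no limit, the median over probe sets, and leaving out _x_at and _s_at probe sets) 5 to 8 members were lower and 1, Pygl, was higher. Pgam2, Eno3, Pfkm, Tpi1 and Pkm were lower in each of them. Of all genes, 4.02% to 9.37% were lower and 1.85% to 19.5% higher in these settings. Both highest shares came with no limit, where the lower members included Gbe1, otherwise under the main limit. The 4-fold threshold left 2 lower and 0 higher. The medians of the members, muscle isozymes and paralogs, and the median pair difference, moved by less than 0.56 in these alternatives. That value is the SD between probe sets of a gene, over all genes, and does not measure the spread of a median. The median of the muscle isozymes turned from -0.29 to 0.27 with no limit and to 0.054 with the higher limit. A pair of scalings was chosen after seeing the data: dividing by the 3' Gapdh control, which puts the median of all genes at 0.82, gave 2 lower and 6 higher, with medians of 0.39 for the members, 0.45 for the muscle isozymes and 0.55 for the paralogs, and dividing by the 3' beta-actin control (median of all genes -0.22) gave 11 lower and 0 higher. With the beta-actin scaling 1363 of all 13316 measured genes (10.2%) were lower and 266 higher. In the main setting 714 (5.36%) were lower and 800 higher, so the count of lower genes rose over the whole array too. The beta-actin control read 108712 and 134389. No paired analysis was possible because each genotype has 1 array. Low signal limits Phkg1, Gbe1, Eno2, Pygm and the size of the Pgam2 ratio.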

Other observations

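Gapdh is widely used to scale expression between samples. On these arrays its log2 ratio was -0.73 at the 3' end, -1.09 in the middle and -0.14 at the 5' end, against 0.31, -0.15 and 0.14 for beta-actin, so the choice between these reference genes and regions would shift every ratio by up to 1.40 on the log2 scale.

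Among pathway genes outside the members that were above the limit on both arrays and did not reach 2-fold, the 4 with the largest ratios each have 1 measured probe set, and they were singled out after their values were seen. Stbd1, which anchors glycogen to membranes, read 4432 and 2291, and Ppp1r3b, a glycogen-targeting phosphatase subunit, read 3765 and 2127. Gsk3a, a glycogen synthase kinase, read 8047 and 14089. Slc16a1, the lactate and pyruvate carrier MCT1, read 2727 and 1575. Of these genes, Gsk3a read higher and the others lower, from 1.73-fold to 1.93-fold. Genes with 1 signal under the limit have only a bound and were not ranked, among them Prkag3 (795 and 87.5), a muscle gamma subunit of AMP-activated kinase, and Ppp1r3a (86.4 and 759), a muscle glycogen-targeting phosphatase subunit.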
